A study of Mus musculus with 8 samples.

Results

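The response to lipopolysaccharide (LPS) of macrophages labelled Bcl6 knockout was read from 4 of the 8 bead arrays of the series, 2 hybridised with RNA of LPS-stimulated cells and 2 with RNA of unstimulated cells. The cells were primary macrophages derived from bone marrow of male mice aged 10 weeks on a C57Bl6/J background. The groups used here were Bcl6-/- with LPS, Bcl6-/- unstimulated, wild type with LPS and wild type unstimulated, each read on n = 2 arrays that the labels call technical replicates. All p-values and standard errors therefore measure only the spread between such arrays and none between mice or cultures. The sources used here give neither the dose and duration of LPS nor the design of the knockout allele. Of 45281 probes, the 13328 that at least 2 of these 4 arrays detected, at a detection p under 0.01, were tested. They read 7854 named genes of the 19053 with a named probe, each represented by its brightest tested probe, and 1698 tested probes carried no gene name here.

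LPS, a lipid of the outer membrane of Gram-negative bacteria, is handed by Cd14 to the receptor Tlr4 and its partner Md-2 on the macrophage surface. The adaptor Myd88 leads from there to the kinases that free NF-kappaB and activate AP-1, which drive genes of cytokines, chemokines and their own inhibitors. A second adaptor, Trif, leads to interferon beta, whose receptor works through Jak kinases and Stat factors on a large set of antiviral genes. Bcl6 is a zinc-finger repressor best known from germinal-centre B cells, and in macrophages it has been described at promoters that NF-kappaB also occupies. The comparison asked which transcripts LPS changed in cells labelled as lacking this repressor.

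Signals are normalized log2 intensities, and a change is the mean over the LPS arrays minus the mean over the unstimulated arrays, given as log2 ± the standard error of one limma fit over all 8 arrays. A gene was called where the limma p, adjusted by Benjamini-Hochberg over all 13328 probes, was under 0.05 and the change was at least 2-fold. "LPS arrays" and "unstimulated arrays" below are those labelled knockout unless wild type is named. Where a probe was undetected on both arrays of a group, a fold is given only as a lower bound. Medians of raw signal were 113.7 and 112.1 on the LPS arrays, against 119.8 and 117.9 on the unstimulated arrays, and 11857 to 13209 probes were detected per array over the series, fewest on replicate 1 of the LPS arrays. Arrays of one group correlated across probes with r of 0.992 to 0.994, against 0.924 to 0.926 between LPS and unstimulated arrays, across probes that are no replicates of each other. With 2 arrays a group, precision is limited by their number.

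The probe of Bcl6 itself was the first value examined, because it bears on the labels. Its signal was 9.92 and 9.93 on the LPS arrays, against 12.60 and 12.33 on the unstimulated arrays. In wild type it was 10.75 and 10.99 with LPS, against 10.95 and 10.92 without. The highest signals of the series for this probe were thus on the unstimulated arrays labelled knockout and the lowest on the LPS arrays labelled knockout, and the wild-type arrays lay between them. The LPS change was -2.54 ± 0.13 (limma adjusted p = 1.18e-06), beside -0.07 ± 0.13 in wild type. The position of the probe relative to any deleted part of the gene was not analysed here. The probe does not settle the genotype, and the arrays are named by their labels throughout.

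Macrophage markers were present in both groups. All 8 macrophage markers with a named probe were detected on every array, among them Lyz2, which encodes lysozyme, at 15.93 and 15.55 on the LPS arrays, against 15.85 and 15.96 on the unstimulated arrays, and the surface receptor Adgre1 (F4/80) at 13.61 and 13.55 on the LPS arrays, against 13.18 and 12.79 on the unstimulated arrays. For B cells, T cells and erythroid cells 0 of 7, 0 of 7 and 0 of 6 markers with a named probe were detected on both arrays of either group. Granulocyte markers were detected for 10 of 17 on the LPS arrays and 9 of 17 on the unstimulated arrays. Their summed linear signal was 14192 to 15043 on the LPS arrays and 9850 to 10697 on the unstimulated arrays, and 23999 to 24159 and 25993 to 28905 on the wild-type LPS and wild-type unstimulated arrays. The members Elane, Ctsg, Prtn3 and Cebpe were undetected on all 4 arrays and detected on all wild-type arrays. Mmp8 went the other way, detected on both LPS arrays and on no wild-type array. Csf3r read 9.01 and 8.95 on the LPS arrays, against 8.13 and 7.58 on the wild-type LPS arrays. Of the 11 tested granulocyte markers 2 rose, the iron-chelating lipocalin Lcn2 rising by 2.87 ± 0.12 and the receptor Csf3r by 1.29 ± 0.17. Of natural killer, dendritic and stromal markers 1 each was detected in both groups (Prf1, Bst2 and Acta2), and of mast cell markers Hdc with LPS. In bulk RNA, fewer cells of a type and less RNA per cell cannot be told apart, and the part of other cells in the results below was not tested.

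LPS raised 619 genes and lowered 608 in the labelled knockout, 7.88% and 7.74% of the 7854 tested. At the level of probes 1077 rose (8.08%) and 909 fell (6.82%). The rises were the larger changes: 210 genes rose at least 4-fold and 85 fell as much, and at 16-fold these counts were 33 and 3. The median size of a called change was 1.58 for genes that rose and 1.32 for genes that fell. The median change of all tested genes was -0.13. A further 2747 genes had an adjusted p under 0.05 with a change under 2-fold. The plot of change against signal shows both sides of the response.

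**Figure D1:**
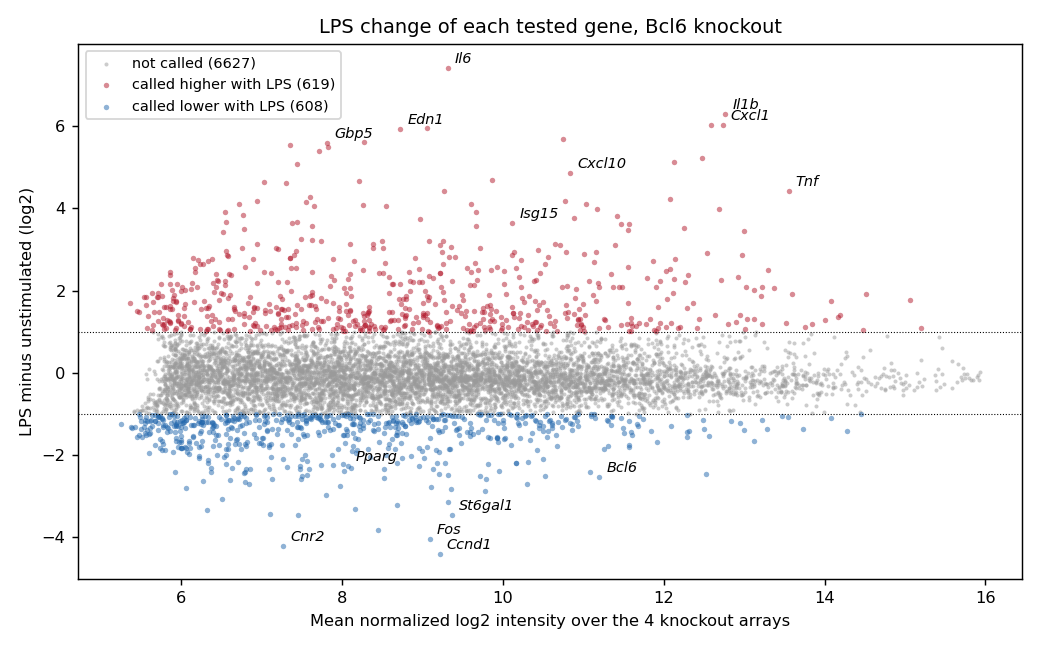
Each point is 1 of the 7854 tested genes, placed by its mean normalized log2 intensity over the 4 arrays labelled knockout (horizontal) and its LPS minus unstimulated change in log2 (vertical), with called genes coloured and dotted lines at 2-fold. The 619 called rises reach further from 0 than the 608 called falls, and Il6 stands highest at 7.41.

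The split between rises and falls moved with the scaling of the arrays. When arrays were scaled by their medians instead of quantile-normalized, 828 probes rose and 1423 fell around a median change of -0.26, and relative to that median 1170 rose and 752 fell. Relative to the median of all probes in the quantile-normalized data, 1217 rose and 726 fell. Without background correction 622 rose and 327 fell, and with the authors' processed values 639 rose and 331 fell. Cyclic loess gave 1186 and 707.

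The detection filter admitted genes that only 1 group showed. Of the tested genes 158 were detected on both LPS arrays and on neither unstimulated array, of which 123 were called higher. In the other direction 367 were detected on both unstimulated arrays alone, of which 164 were called lower. Such genes passed the filter through the group where they are high. Among the 6809 genes detected on all 4 arrays, 468 rose (6.87%) and 396 fell (5.82%). At the edge of the filter, the 1320 probes detected on exactly 2 of the 4 arrays had a median signal of 5.91, and the 1087 detected on 1 and left out had 5.60.

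The largest rises with signal on every array were those of inflammatory cytokines and chemokines. Il1b, the pyrogenic cytokine interleukin-1 beta, read 15.86 and 15.96 on the LPS arrays, against 9.62 and 9.63 on the unstimulated arrays. Its sister cytokine Il1a read 15.60 and 15.60 on the LPS arrays, against 9.61 and 9.52 on the unstimulated arrays. Cxcl1, a chemokine that attracts neutrophils through Cxcr2, read 15.75 and 15.74 on the LPS arrays, against 9.77 and 9.68 on the unstimulated arrays. For each of these the LPS arrays lay far above the unstimulated arrays with no overlap, and the changes were 6.29 ± 0.13, 6.03 ± 0.11 and 6.02 ± 0.10. Called genes were named by the size of their change, so a lack of overlap, here and below, follows from that choice. The share of all tested genes without overlap was not counted. Serpinb2, an inhibitor of plasminogen activators, read 11.98 and 12.08 on the LPS arrays, against 6.10 and 6.06 on the unstimulated arrays, a change of 5.95 ± 0.11. Cd40, the receptor through which T cells license antigen-presenting cells, read 13.60 and 13.58 on the LPS arrays, against 7.74 and 8.06 on the unstimulated arrays. Its change was 5.69 ± 0.14, while its 3 other tested probes read 1.58 to 5.48. Next came the chemokines Cxcl2, Ccl5 and Cxcl10 at 5.23 ± 0.13, 5.14 ± 0.12 and 4.85 ± 0.16, with a second probe at 7.13 for Cxcl2 and 6.17 for Cxcl10. The early activation marker Cd69, the arginine transporter Slc7a2, the gap-junction protein Gja1 and the cytokine Tnf followed at 4.68 ± 0.14, 4.67 ± 0.16, 4.42 ± 0.14 and 4.41 ± 0.13. None of these 12 genes had a limma adjusted p above 1.61e-07. Raw intensities of the brightest were high in the range of the LPS arrays, at 52028 and 57170 for Il1b where the arrays' highest probes read 64927 and 62618.

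**Figure D2:**
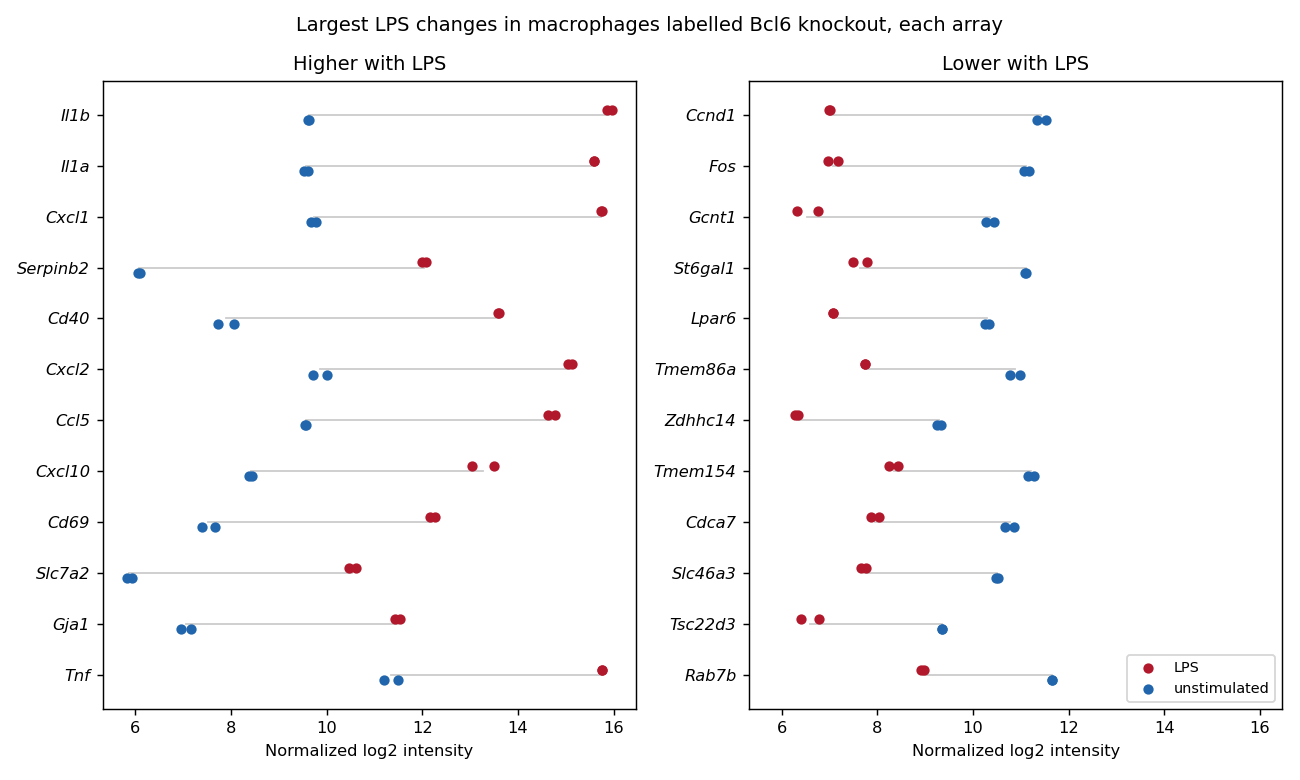
Points are normalized log2 intensities (horizontal) on each array labelled Bcl6 knockout, 2 with LPS and 2 unstimulated, for the 12 genes with the largest called rise (left) and the 12 with the largest called fall (right) among genes detected on all 4 arrays. In each of the 24 genes both LPS arrays lie on one side of both unstimulated arrays. This follows from choosing called genes with the largest changes.

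Genes without signal until LPS was given added a vasoconstrictor, enzymes and receptors. Edn1, which encodes endothelin-1, read 11.64 and 11.72 on the LPS arrays, against 5.79 and 5.74 on the unstimulated arrays. Il4i1, a secreted oxidase of aromatic amino acids, read 11.12 and 11.05 on the LPS arrays, against 5.34 and 5.60 on the unstimulated arrays. Gbp5, a guanylate-binding protein that guards the cytosol, read 10.53 and 10.67 on the LPS arrays, against 5.15 and 4.89 on the unstimulated arrays. All 3 were undetected on both unstimulated arrays and rose at least 58.4-fold, 38.7-fold and 27.6-fold. The Ras activator Rasgrp1 rose at least 27.1-fold, the interleukin-12 subunit Il12a at least 24.1-fold and the adhesion receptor Slamf1 at least 19.8-fold. Ptgs2, the inducible cyclooxygenase, rose at least 17.8-fold, and Lox, a collagen cross-linking oxidase, at least 15.1-fold. A second probe of Gbp5 read a change of 2.56 and one of Slamf1 3.37.

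The largest falls with signal on every array were those of a cyclin, an AP-1 subunit and enzymes that modify sugars on proteins. Ccnd1, which encodes the G1 cyclin D1, read 7.0 and 7.0 on the LPS arrays, against 11.33 and 11.52 on the unstimulated arrays. Fos, the AP-1 subunit, read 6.97 and 7.17 on the LPS arrays, against 11.16 and 11.07 on the unstimulated arrays. Gcnt1, which branches O-glycans, read 6.32 and 6.76 on the LPS arrays, against 10.44 and 10.27 on the unstimulated arrays. Every LPS array was below every unstimulated array for these, and the changes were -4.42 ± 0.13, -4.05 ± 0.12 and -3.82 ± 0.22. The sialyltransferase St6gal1 changed by -3.46 ± 0.13 and Lpar6, a receptor for lysophosphatidic acid, by -3.21 ± 0.15. Tmem86a and Zdhhc14, a lysoplasmalogenase relative and a palmitoyltransferase, changed by -3.14 ± 0.12 and -2.98 ± 0.11. The membrane protein Tmem154 changed by -2.87 ± 0.12, the cell-cycle gene Cdca7 by -2.82 ± 0.15 and the lysosomal transporter Slc46a3 by -2.78 ± 0.12. Tsc22d3, the glucocorticoid-induced leucine zipper that restrains NF-kappaB and AP-1, changed by -2.76 ± 0.15, and Rab7b, a small GTPase that sends Tlr4 to lysosomes, by -2.70 ± 0.11. The limma adjusted p of these 12 was at most 1.98e-06.

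Other genes were lost from detection. Cnr2, the cannabinoid receptor of immune cells, read 5.20 and 5.11 on the LPS arrays, against 9.30 and 9.45 on the unstimulated arrays, a fall of at least 10.0-fold. The spindle protein gene Ccsap fell at least 8.75-fold, the axonemal dynein Dnah11 at least 6.91-fold and the activating receptor Cd300lb at least 5.15-fold. Falls of at least 4.41-fold, 4.21-fold, 4.0-fold and 3.94-fold were read for the transcription factor Tal2, the F-box protein Fbxw4, the translation inhibitor Pdcd4 and the orphan receptor Gpr162.

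The gene lists below follow the pathway from receptor to effector. Each is described by how many members were listed, had a named probe and were tested, since members without a tested probe carry no value, and by its median beside the -0.13 of all tested genes. Members seen in 1 group alone passed the filter through the group where they are high, so counts among members detected on all 4 arrays are also given. They were 8 of 15 risen for chemokines, 7 of 8 for guanylate-binding proteins and GTPases, 6 of 12 for nitric oxide, itaconate and amino acid enzymes and 10 of 17 for costimulatory genes. For DNA replication genes 11 of 30 such members fell. Among other lists counted over such members, 4 rose and 1 fell of 11 matrix proteases and inhibitors, 4 rose and 5 fell of 13 chemoattractant receptors, 6 rose and 2 fell of 20 cytokine receptors, and 5 rose and 1 fell of 13 cytokine feedback inhibitors. Likewise 7 rose and 4 fell of 20 MAP kinase phosphatases and AP-1 factors, 6 rose and 3 fell of 24 inflammasome and death genes, 2 rose and 1 fell of 6 mRNA-decay regulators, and 2 rose and 3 fell of 12 cyclins and Cdk inhibitors. In the remaining such lists 2 rose and 1 fell of 15 phagocytic and Fc receptors, 3 rose and 2 fell of 25 lineage genes, and 5 rose and 1 fell of 10 genes of the B-cell list of Bcl6 targets. These counts are set against the 6.87% and 5.82% that rose and fell of the 6809 genes detected on all 4 arrays. Counts over all tested members, given below, are set against the 7.88% and 7.74% of tested genes that rose and fell. No list was tested as a list. Counts at an unadjusted limma p under 0.05 stand beside 4503 of the 7854 tested genes under that p, in either direction. Most tested genes were thus under it, since it measures only the spread between technical replicate arrays. The limma adjusted p of every list member named as having risen or fallen was at most 0.0115.

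**Figure D3:**
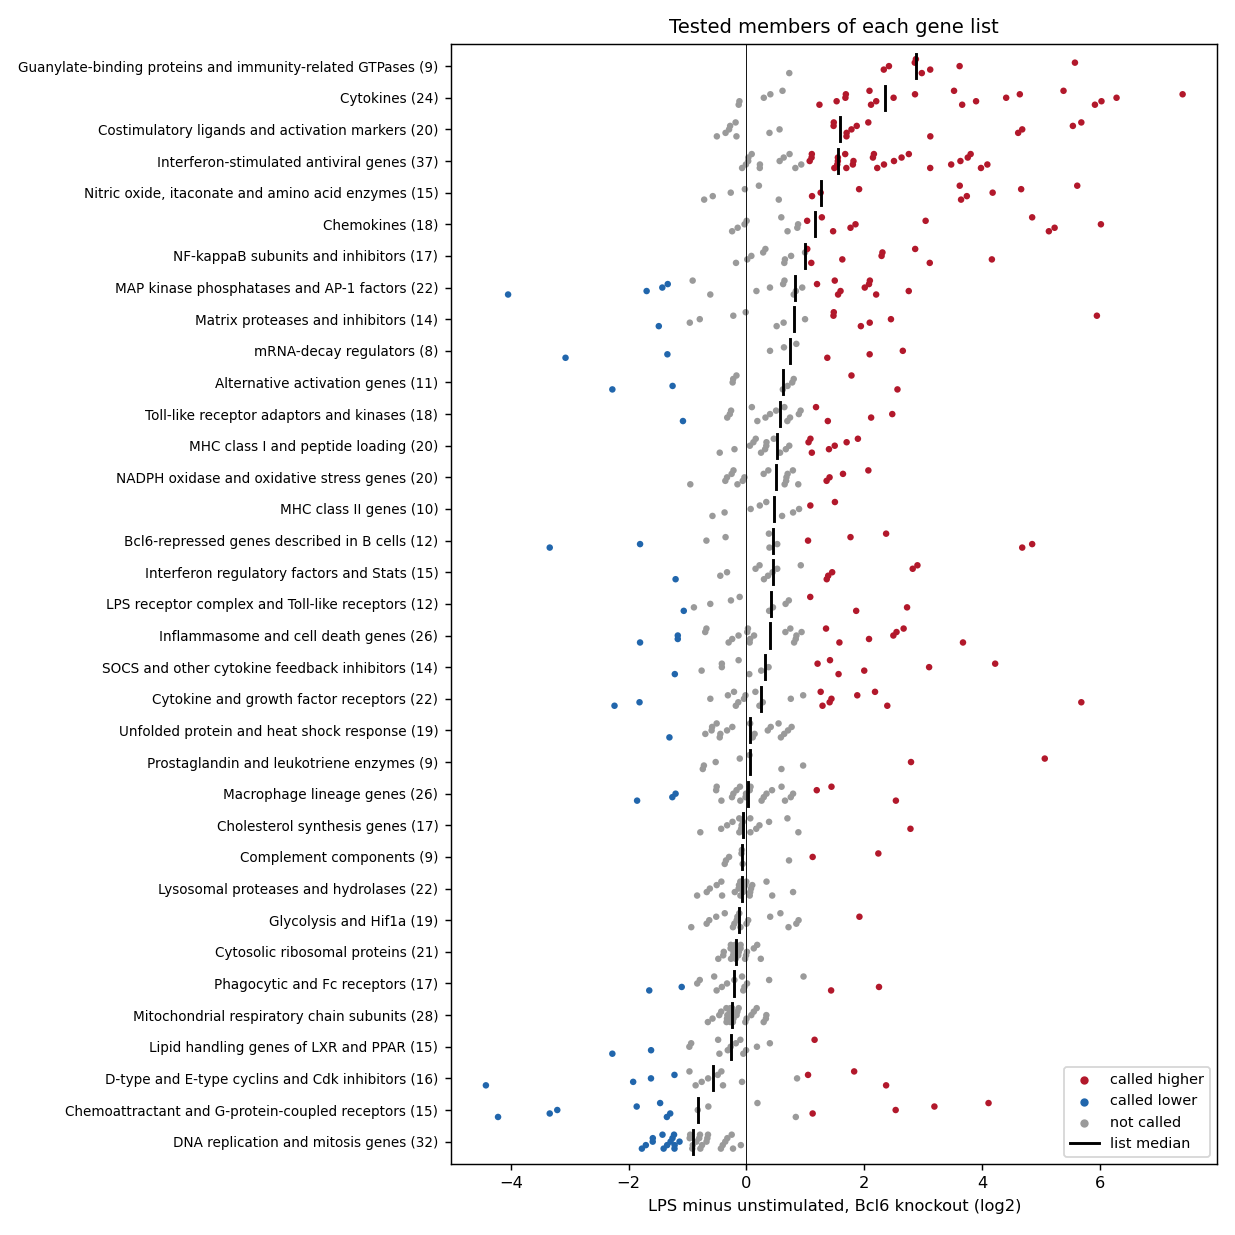
Each point is 1 tested member of a gene list (row, with its number of tested members), placed by its LPS minus unstimulated change in log2 in the labelled knockout, and the bar marks the list's median. Guanylate-binding proteins and cytokines stand highest, with medians of 2.88 and 2.35, and DNA replication genes lowest at -0.91.

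At the level of the receptor, the change was small for the LPS sensor itself. Of 16 listed genes, 16 had a named probe and 12 were tested, of which 3 rose and 1 fell around a median of 0.42. Tlr4, named after its values were seen, read 10.39 and 10.37 on the LPS arrays, against 9.92 and 9.94 on the unstimulated arrays, a change of 0.45 ± 0.12 that stayed under 2-fold. Tlr1 and Tlr6, which pair with Tlr2 to sense bacterial lipopeptides, rose by 2.73 ± 0.16 and 1.86 ± 0.11, and the co-receptor Cd14 by 1.08 ± 0.13. Tlr2 changed by 0.72 ± 0.10, short of 2-fold, and Tlr13, a sensor of bacterial ribosomal RNA in mice, fell by 1.06, a call lost with cyclic loess at -0.96. Of the adaptors and kinases, 18 of 23 were tested, 4 rose and 1 fell around a median of 0.58. The rises were in Peli1 and Traf1, a ubiquitin ligase and an adaptor of this pathway, at 2.48 ± 0.12 and 1.18 ± 0.11, the kinase Irak2 at 1.38 ± 0.11, and Irak3, the kinase-dead member that dampens the pathway, at 2.12 ± 0.20. Myd88 changed by 0.70 ± 0.19 and Tbk1, the kinase of the interferon arm, by 0.40 ± 0.12.

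Among NF-kappaB genes, inhibitors and an inducible subunit rose. Of 20 listed genes, 17 had a named probe and 17 were tested, of which 8 rose and 0 fell, with 0 lower at an unadjusted limma p under 0.05, and the median was 1.0. Nfkbiz, a nuclear co-factor needed for Il6 transcription in mice, read 12.96 and 12.76 on the LPS arrays, against 8.62 and 8.76 on the unstimulated arrays. Tnfaip3 (A20), a ubiquitin editor that shuts the pathway off, read 13.08 and 12.82 on the LPS arrays, against 9.79 and 9.88 on the unstimulated arrays. Nfkbia, the classic inhibitor IkappaB alpha, read 12.94 and 12.96 on the LPS arrays, against 10.46 and 10.82 on the unstimulated arrays. None of these overlapped between the groups, and the changes were 4.17 ± 0.14, 3.11 ± 0.13 and 2.31 ± 0.16. The subunit Rel rose by 2.87 ± 0.13, while Rela, the constitutive subunit, changed by 0.66 ± 0.11 without reaching 2-fold.

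AP-1 factors moved in both directions. Of 29 listed genes, 28 had a named probe and 22 were tested, of which 9 rose and 4 fell around a median of 0.82. Fosl2 read 11.28 and 11.27 on the LPS arrays, against 9.14 and 9.22 on the unstimulated arrays, a rise of 2.10 ± 0.11, in contrast to the fall of Fos. Maff, a small Maf factor, rose by 2.20 ± 0.22 and the phosphatase Dusp2, which inactivates MAP kinases in the nucleus, by 2.76 ± 0.19. The phosphatases Dusp3 and Dusp4 changed by -0.91 ± 0.12 and 0.84 ± 0.11, both under 2-fold, though Dusp4 reached 1.03 and was called with cyclic loess.

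Some feedback inhibitors of cytokine receptors rose. Socs3, which shuts off signalling through gp130, read 14.16 and 14.21 on the LPS arrays, against 9.94 and 9.98 on the unstimulated arrays, a rise of 4.22 ± 0.11. Cish, an inhibitor of Stat5 signalling, read 12.31 and 12.20 on the LPS arrays, against 9.02 and 9.29 on the unstimulated arrays, a rise of 3.10 ± 0.15. Socs1, which inhibits Jak kinases under interferon receptors, was undetected on the unstimulated arrays and rose at least 2.36-fold. Usp18, which blocks the interferon alpha receptor, rose by 1.57 ± 0.11. Across the list, 14 of 15 were tested, 6 rose and 1 fell around a median of 0.31, and the phosphatases Ptpn6 and Ptpn11 changed by -0.42 ± 0.12 and 0.05 ± 0.11. Among interferon regulatory factors, Stats and Jaks 5 of 15 tested rose and 1 fell around a median of 0.45. Irf1 rose by 2.90 ± 0.14, Jak2 by 2.82 ± 0.12, Stat2 by 1.46 ± 0.11 and Stat5a by 1.39 ± 0.12, while Stat3 changed by 0.37 ± 0.11 and Irf2 by 0.22 ± 0.11.

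Regulators of messenger RNA decay moved in both directions. Zfp36 (tristetraprolin) and Zc3h12a (Regnase-1), which destabilise cytokine messages, rose by 2.09 ± 0.11 and 2.66 ± 0.13, and Hnrnpd by 1.37 ± 0.22. Zfp36l1, a relative of Zfp36, read 9.34 and 9.35 on the LPS arrays, against 10.69 and 10.68 on the unstimulated arrays, a fall by 1.34. In all 3 of 8 tested members rose and 2 fell around a median of 0.74.

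Cytokines rose in most of the members that could be tested. Of 33 listed genes, 31 had a named probe and 24 were tested, of which 19 rose and 0 fell, with 0 lower at an unadjusted limma p under 0.05, and the median was 2.35. Of the tested members 8 passed the filter through the LPS arrays alone, and of the 15 detected on all 4 arrays, 10 rose and 0 fell. Il6, which drives the acute-phase response, read 12.95 and 13.09 on the LPS arrays, against 5.34 and 5.87 on the unstimulated arrays. Only 1 unstimulated array of the 2 detected it. The LPS arrays were above both unstimulated arrays by a fitted change of 7.41 ± 0.18 (limma adjusted p = 2.15e-08), the largest of the 7854 genes. Csf2, the growth factor GM-CSF, read 9.26 and 9.44 on the LPS arrays, against 4.78 and 4.64 on the unstimulated arrays. Undetected without LPS, it rose at least 11.6-fold. Tnf read 15.77 and 15.75 on the LPS arrays, against 11.49 and 11.20 on the unstimulated arrays, and Il1rn, which encodes the interleukin-1 receptor antagonist, read 13.08 and 12.83 on the LPS arrays, against 13.06 and 13.11 on the unstimulated arrays. Tnf did not overlap between the groups, whereas Il1rn did, with a change of -0.13 ± 0.12. Pdgfb, a growth factor for mesenchymal cells, also overlapped, at -0.12 ± 0.12. Outside the naming rule and chosen after their values were seen, Csf3, the growth factor of granulocytes, rose at least 6.44-fold, Il27 at least 5.94-fold and Il23a, a subunit of the cytokine that sustains Th17 cells, at least 4.56-fold. Ifnb1, the interferon beta of the Trif arm, read 6.42 and 5.99 on the LPS arrays, against 4.52 and 4.51 on the unstimulated arrays, undetected without LPS and at least 1.31-fold higher with it.

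Chemokines rose from different starting signals. Of 23 listed genes, 22 had a named probe and 18 were tested, of which 10 rose and 0 fell, with 0 lower at an unadjusted limma p under 0.05, and the median was 1.16. The neutrophil attractants Cxcl1 and Cxcl2 and the T cell attractants Ccl5 and Cxcl10 had changes of 4.85 to 6.02. Ccl7, a monocyte attractant, was already high, at 15.02 and 14.98 on the LPS arrays, against 13.98 and 13.95 on the unstimulated arrays, a rise of 1.03 ± 0.10 that fell just short of 2-fold, at 0.98, when the 4 arrays were fitted alone. The monocyte attractant Ccl3 read 15.96 and 15.93 on the LPS arrays, against 14.17 and 14.19 on the unstimulated arrays, a rise of 1.77 ± 0.11. Ccl4 and Ccl9 changed by 0.87 ± 0.15 and 0.59 ± 0.11 at signals close to the top of the arrays, and a second probe of Ccl4 read 2.56. Ccl17, a ligand of Ccr4 on T cells, was undetected without LPS and rose at least 1.57-fold.

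Receptors of the chemoattractant and G-protein-coupled list moved in both directions. Of 31 listed genes, 27 had a named probe and 15 were tested, of which 4 rose and 7 fell around a median of -0.82. Fpr2, a receptor for formylated bacterial peptides, read 13.08 and 13.10 on the LPS arrays, against 8.83 and 9.13 on the unstimulated arrays, a rise of 4.11 ± 0.13. Gpr183, the receptor for oxysterols that guides cells in lymphoid tissue, read 4.60 and 4.71 on the LPS arrays, against 8.0 and 7.99 on the unstimulated arrays, a loss of detection and a fall of at least 3.86-fold. Cxcr4, the receptor of Cxcl12, read 8.34 and 8.46 on the LPS arrays, against 10.44 and 10.09 on the unstimulated arrays, a fall by 1.86. The nucleotide receptors P2ry13 and P2ry14 changed by -0.65 ± 0.12 and 0.84 ± 0.13, neither reaching 2-fold. For Ch25h, which makes the oxysterol precursor of the Gpr183 ligand, the reading was 10.37 and 10.24 on the LPS arrays, against 7.46 and 7.58 on the unstimulated arrays, a rise of 2.79 ± 0.12.

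Cytokine receptors showed 8 rises and 2 falls among 22 tested of 29 listed, with a median of 0.25, and 5 rises without background correction. Besides Cd40, Tnfrsf1b, the second Tnf receptor, rose by 2.18 ± 0.12 and Il10ra, the receptor chain for interleukin-10, by 1.44 ± 0.14. Il15ra, which presents interleukin-15 to neighbouring cells, was undetected without LPS and rose at least 3.51-fold. Il6ra, the ligand-binding chain for Il6, read 6.83 and 6.72 on the LPS arrays, against 8.96 and 9.07 on the unstimulated arrays, a fall by 2.24, while its ligand rose. Csf1r, the receptor that keeps macrophages alive, read 12.70 and 12.73 on the LPS arrays, against 12.66 and 12.79 on the unstimulated arrays, with overlapping groups and a change of -0.01 ± 0.14.

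Interferon-stimulated genes rose broadly. Of 51 listed genes, 47 had a named probe and 37 were tested, of which 25 rose and 0 fell, with 0 lower at an unadjusted limma p under 0.05, and the median was 1.55. Of the 34 detected on all 4 arrays, 22 rose and 0 fell. Mx2, a dynamin-like restriction factor, read 10.29 and 10.33 on the LPS arrays, against 6.35 and 6.08 on the unstimulated arrays. Rsad2 (viperin), which makes a chain-terminating nucleotide, read 14.81 and 14.56 on the LPS arrays, against 10.65 and 10.76 on the unstimulated arrays. These arrays did not overlap, and the changes were 4.09 ± 0.12 and 3.98 ± 0.14. The translation inhibitor Ifit2 rose by 3.81 ± 0.16 and Cmpk2, a nucleotide kinase, by 3.76 ± 0.12. The membrane proteins Ifitm1 and Ifitm3, which block viral entry, were high throughout and changed by 0.23 ± 0.13 and -0.07 ± 0.15, although a second probe of Ifitm1 read 1.85.

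Guanylate-binding proteins and immunity-related GTPases, which attack vacuoles of intracellular microbes, rose in 8 of 9 tested of 15 listed, with a median of 2.88. Gbp3 read 13.39 and 13.37 on the LPS arrays, against 9.85 and 9.67 on the unstimulated arrays, a rise of 3.62 ± 0.11. Ifi47 and Igtp rose by 3.12 ± 0.11 and 2.98 ± 0.10. The member that was not called, Irgm1, read 14.18 and 13.80 on the LPS arrays, against 13.32 and 13.20 on the unstimulated arrays, a change of 0.73 ± 0.14.

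Because many of these genes are textbook targets of NF-kappaB and of the interferon-activated factors, the RefSeq promoters (GRCm38.p6, 250 bases before to 50 after a start) were searched on both strands for 4 short motifs. These were a kappaB motif GGGANNTTCC, an interferon-response motif TTTCNNTTTC, the core TTCNNNGAA shared by Stat factors and Bcl6, and an E2F motif GGCGGGAA, E2F being a regulator of replication genes. Promoters on a single chromosome were left out of the search and of all its counts. A promoter was searched for 6461 of the tested genes, and a gene counted if any of its promoters held the motif. The kappaB motif was found in 21 of 496 genes that rose (4.23%), against 1.75% of the tested genes and 1.63% of all genes with a promoter, and 1.41% of genes that fell. For the interferon-response motif these shares were 10.1% of genes that rose, 4.02% of tested genes, 3.99% of all and 2.62% of genes that fell. For the Stat and Bcl6 core they were 12.3%, 8.61%, 9.55% and 9.07%. For the E2F motif they were 3.63%, 4.94%, 2.52% and 4.84%, and it was in 1 of 11 replication genes that fell. Matches of the kappaB motif and the core overlapped in 2 promoters of tested genes, those of the interferon-response motif and the core in 9, and those of the first pair of motifs in 0. Matches of the E2F motif overlapped those of the kappaB motif in 3 and those of the other motifs in 0. Among called members with a promoter, the kappaB motif was in 3 of 7 chemokines and 3 of 12 cytokines. The interferon-response motif was in 10 of 20 interferon-stimulated genes and 6 of 7 guanylate-binding proteins and GTPases. A match is a description of letters and not evidence of binding, and the shares were not tested.

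Stretches around the kappaB matches of 5 genes with large rises are shown 5′ to 3′ in the sense of the gene, with the match in capitals. They are examples picked for having both a rise and a match, which 21 of the 496 risen genes with a promoter had. A link between the motif and the rises was not tested.
Cxcl1 (chr5:90891134-90891224, plus strand): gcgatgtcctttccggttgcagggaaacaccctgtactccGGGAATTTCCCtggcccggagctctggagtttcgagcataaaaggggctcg
Cxcl2 (chr5:90903762-90903852, plus strand): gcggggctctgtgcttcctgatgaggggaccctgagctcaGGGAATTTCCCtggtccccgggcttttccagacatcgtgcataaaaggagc
Cxcl10 (chr5:92348999-92349088, minus strand): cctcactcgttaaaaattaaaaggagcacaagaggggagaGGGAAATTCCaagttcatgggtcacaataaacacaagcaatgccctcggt
Il6 (chr5:30013030-30013119, plus strand): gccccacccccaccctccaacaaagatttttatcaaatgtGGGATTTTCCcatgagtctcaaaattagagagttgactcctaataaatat
Nfkbia (chr12:55492627-55492716, minus strand): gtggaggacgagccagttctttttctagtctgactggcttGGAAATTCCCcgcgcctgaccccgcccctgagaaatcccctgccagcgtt
The first match began at -71 from the start in Cxcl1 and at -97 in Cxcl2, and in both genes matches on the plus and minus strands overlap and give a longer run of capitals. It began at -159 in Cxcl10, at -44 in Il6 and at -29 in Nfkbia. The changes of these genes with LPS are those given above. Il6 and Nfkbia, and the genes of the next sets other than Rsad2, were chosen for display after their values were seen.

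Stretches around the interferon-response matches of 3 genes follow, since this motif was the most shared one in the antiviral lists.
Rsad2 (chr12:26456523-26456612, minus strand): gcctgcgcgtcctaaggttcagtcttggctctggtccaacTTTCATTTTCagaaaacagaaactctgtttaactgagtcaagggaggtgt
Gbp3 (chr3:142559959-142560054, plus strand): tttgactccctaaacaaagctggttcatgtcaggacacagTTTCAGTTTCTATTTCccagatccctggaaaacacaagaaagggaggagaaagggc
Igtp (chr11:58199482-58199571, plus strand): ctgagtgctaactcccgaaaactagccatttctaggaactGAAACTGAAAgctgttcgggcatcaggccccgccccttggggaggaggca
The matches of Gbp3, which overlap each other, and of Igtp began at -45 and -34 from the start, and that of Rsad2 at -120.

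For the Stat and Bcl6 core, 1 promoter of Bcl6 itself held 3 matches and those of Socs3 and Irf1 are shown beside it. They are shown because the core is the motif of this search that Bcl6 itself is known to read.
Bcl6 (chr16:23981323-23981491, minus strand): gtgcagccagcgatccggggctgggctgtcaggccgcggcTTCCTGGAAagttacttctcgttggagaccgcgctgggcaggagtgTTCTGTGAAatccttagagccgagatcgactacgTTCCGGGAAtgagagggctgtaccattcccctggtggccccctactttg
Socs3 (chr11:117969472-117969560, minus strand): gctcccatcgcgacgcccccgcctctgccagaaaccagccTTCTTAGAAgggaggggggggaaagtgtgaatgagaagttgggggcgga
Irf1 (chr11:53769884-53769972, plus strand): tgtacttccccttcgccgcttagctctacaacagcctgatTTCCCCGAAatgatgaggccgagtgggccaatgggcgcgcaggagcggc
The first of the Bcl6 matches began at -168, that of Socs3 at -154 and that of Irf1 at -90 from the start.

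Effector enzymes of arginine and amino acid metabolism rose with the cytokines. Of 22 listed genes, 19 had a named probe and 15 were tested, of which 9 rose and 0 fell, with 2 lower at an unadjusted limma p under 0.05, and the median was 1.26. Nos2, the inducible nitric oxide synthase, read 9.04 and 9.01 on the LPS arrays, against 4.73 and 4.96 on the unstimulated arrays, undetected without LPS and at least 9.3-fold higher with it. Slc7a2, which imports its substrate arginine, read 10.46 and 10.61 on the LPS arrays, against 5.92 and 5.83 on the unstimulated arrays, a rise of 4.67 ± 0.16, with 1.78 and 3.87 on 2 other probes. Arg2, the mitochondrial arginase, rose by 3.74 ± 0.21. Hdc, which makes histamine and also stood in the mast cell list, rose at least 10.4-fold, and 1.40 log2 on a second probe, while the mast cell markers Cpa3, Kit and Mcpt8 were undetected on all 4 arrays. Ass1 and Odc1, enzymes of citrulline and of polyamines, changed by 0.55 ± 0.13 and 0.21 ± 0.11.

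In prostaglandin synthesis the inducible cyclooxygenase and a synthase after it were called higher. Ptgs2, the inducible cyclooxygenase, read 9.86 and 10.08 on the LPS arrays, against 4.87 and 4.94 on the unstimulated arrays. Ptges, the synthase that acts after it, read 8.94 and 8.57 on the LPS arrays, against 5.80 and 6.12 on the unstimulated arrays, detected on 1 of the 2 unstimulated arrays, a fitted rise of 2.80 ± 0.17. Neither was detected on all 4 arrays, and of the 5 members that were, limma called 0, with 1 higher and 2 lower at an unadjusted p under 0.05. Those 2 were the members called of 9 tested of 14 listed, and the list median was 0.05, or -0.22 with median scaling. The leukotriene gene Alox5ap and the thromboxane synthase Tbxas1 changed by -0.52 ± 0.11 and -0.11 ± 0.19.

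Genes of the NADPH oxidase and of oxidative stress rose in 4 of 20 tested of 23 listed members and fell in 0, with 4 lower at an unadjusted limma p under 0.05, around a median of 0.51. These 4 were the thioredoxin reductase Txnrd1 at 2.07 ± 0.20, the haem oxygenase Hmox1 at 1.64 ± 0.10, the autophagy receptor Sqstm1 at 1.41 ± 0.11 and the mitochondrial superoxide dismutase Sod2 at 1.36 ± 0.10. The oxidase subunit Cyba changed by -0.22 ± 0.11 and the peroxiredoxin Prdx1 by 0.29 ± 0.11.

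In the inflammasome and cell death list 7 of 26 tested members rose and 3 fell around a median of 0.40. Nlrp3, the sensor that LPS is known to prime, read 9.16 and 9.39 on the LPS arrays, against 5.73 and 5.46 on the unstimulated arrays, undetected without LPS and at least 11-fold higher with it. Casp4 (caspase-11), which binds LPS in the cytosol, read 8.70 and 8.71 on the LPS arrays, against 6.09 and 6.22 on the unstimulated arrays, a rise of 2.55 ± 0.11 with 0.33 on a second probe. The survival gene Bcl2a1d rose by 2.50 ± 0.11, though its probe may not tell it from its near-identical copies, and the stress gene Gadd45b rose by 2.67 ± 0.12. Bcl2 and Gadd45g fell by 1.80 and 1.16. Casp1 and Mcl1 changed by 0.75 ± 0.12 and -0.70 ± 0.12, both under 2-fold.

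In antigen presentation, genes of peptide transport and editing rose. Of the MHC class I list 20 of 22 members were tested, 7 rose and 0 fell, with 1 lower at an unadjusted limma p under 0.05, around a median of 0.52. The peptide transporters Tap1 and Tap2 rose by 1.70 ± 0.13 and 1.89 ± 0.14, the editor Tapbpl by 1.50 ± 0.11 and the class I transactivator Nlrc5 by 1.40 ± 0.11. The class I chains B2m and H2-D1, already bright, changed by 0.12 ± 0.11 and 0.06 ± 0.19. Of the class II list 2 of 10 tested rose around a median of 0.47, H2-Ab1 by 1.50 ± 0.12 and H2-Aa by 1.09 ± 0.17, the second at 0.82 and not called with median scaling. The invariant chain Cd74 and the protease Ctss, which degrades it, changed by 0.90 ± 0.12 and 0.79 ± 0.13.

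Costimulatory and activation molecules rose in 12 of 20 tested of 27 listed genes and fell in 0, with 1 lower at an unadjusted limma p under 0.05, around a median of 1.59. Besides Cd40, Slamf1 and Cd69, the adhesion ligand Vcam1 read 9.63 and 9.60 on the LPS arrays, against 5.04 and 4.95 on the unstimulated arrays, undetected without LPS and at least 13.9-fold higher with it. Clec7a (dectin-1), the receptor for fungal beta-glucan, rose by 1.78 ± 0.16. Clec4d and Clec4n, lectins that pair with Fc receptor chains, changed by 0.56 ± 0.12 and -0.28 ± 0.12.

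Matrix proteases and their inhibitors rose in 6 of 14 tested of 22 listed members and fell in 1 around a median of 0.81. Mmp13, a collagenase, read 14.36 and 14.17 on the LPS arrays, against 12.08 and 12.26 on the unstimulated arrays, a rise of 2.09 ± 0.13, and its activator Mmp14 rose by 1.94 ± 0.11. Adamts4, which cleaves aggrecan, was undetected without LPS and rose at least 2.42-fold. The elastase Mmp12 and the inhibitor Timp2 changed by -0.22 ± 0.11 and -0.79 ± 0.12.

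Receptors of phagocytosis and complement genes were mostly not called. Of 17 tested phagocytic and Fc receptors 2 rose and 2 fell around a median of -0.20. Fcgr2b, the inhibitory Fc receptor, read 13.76 and 13.91 on the LPS arrays, against 11.62 and 11.55 on the unstimulated arrays, a rise of 2.25 ± 0.11. The lectin Clec4a1 rose by 1.44 ± 0.12, Cd300a fell by 1.65 and the scavenger receptor Stab1 fell by 1.10, the last not called with cyclic loess at -0.95. Fcgr3 and Sirpa changed by -0.50 ± 0.11 and -0.03 ± 0.11. In complement, where 2 of 9 tested genes rose around a median of -0.08, the factor B gene Cfb rose by 2.24 ± 0.13 and the receptor C5ar1 by 1.13 ± 0.12, the second not called with median scaling (0.83) or without replicate 2 of the LPS arrays (0.98). Properdin, Cfp, and C1qc changed by -0.37 ± 0.12 and -0.08 ± 0.16.

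Genes of macrophage identity were mostly not called. In the lineage list 3 of 26 tested members rose, 3 fell and 20 were not called, around a median of 0.03. Of all tested genes 7.88% rose and 7.74% fell. The transcription factors Tfec and Mitf rose by 2.54 ± 0.15 and 1.45 ± 0.15. Mef2c fell by 1.86, and Cebpa, which directs myeloid precursors, fell from detection, by at least 1.44-fold. Lyz2 and the cathepsin Ctsb changed by -0.17 ± 0.15 and -0.10 ± 0.10. Among genes of alternative activation 2 of 11 tested rose and 2 fell around a median of 0.62. Tgm2, a transglutaminase, rose by 2.57 ± 0.11. Pparg, the lipid-sensing nuclear receptor, read 7.03 and 6.85 on the LPS arrays, against 9.06 and 9.36 on the unstimulated arrays, a fall by 2.28, and Gas6, a bridge to dying cells, fell by 1.25. The mannose receptor Mrc1 changed by -0.17 ± 0.17 and Egr2 by 0.80 ± 0.12.

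Genes of DNA replication and mitosis were called in 1 direction, downward. Of 43 listed genes, 40 had a named probe and 32 were tested, of which 13 fell and 0 rose, with 0 higher and 27 lower at an unadjusted limma p under 0.05, and the median was -0.91. Beside these 27 stand 4503 of all 7854 tested genes under that unadjusted p, in either direction. Every tested member had a change below 0, the closest to 0 being -0.09. The median of all tested genes was itself below 0, at -0.13, and the share of them below 0 was not counted. Without background correction, and with the authors' processed values, 5 were called. Mcm2, a subunit of the replicative helicase, read 7.35 and 7.15 on the LPS arrays, against 9.07 and 8.97 on the unstimulated arrays, a fall by 1.77. Ezh2, the Polycomb methyltransferase, read 6.22 and 6.20 on the LPS arrays, against 7.82 and 7.77 on the unstimulated arrays, a fall by 1.59. The licensing factor Cdc6 and the helicase subunit Mcm7 changed by -1.71 ± 0.13 and -1.59 ± 0.23, each detected on 1 of the 2 LPS arrays. Thymidylate synthase, Tyms, changed by -0.23 ± 0.14 and Mcm4 by -0.91 ± 0.12, neither reaching 2-fold.

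Cyclins and inhibitors of their kinases moved in both directions. Besides Ccnd1, Ccne2, an E-type cyclin, was lost from detection and fell at least 1.99-fold. The inhibitors Cdkn1a (p21) and Cdkn2b (p15) rose by 2.37 ± 0.13 and 1.83 ± 0.12. Of 16 tested members 3 rose and 4 fell around a median of -0.57, and without background correction 2 fell. Cdk2 and Cdkn1c changed by -0.97 ± 0.11 and -0.76 ± 0.11.

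Metabolic and housekeeping lists held few called genes. In glycolysis 1 of 19 tested genes rose around a median of -0.12, Slc2a6, a hexose transporter of lysosomal membranes, by 1.92 ± 0.11, while Gapdh and Tpi1 changed by -0.16 ± 0.11 and -0.51 ± 0.12. For 28 tested subunits of the respiratory chain limma called 0 in either direction, with 1 higher and 11 lower at an unadjusted p under 0.05 and a median of -0.24. The subunits Atp5b and Cox5b changed by -0.34 ± 0.12 and -0.28 ± 0.11. For 21 tested ribosomal proteins limma called 0, with 0 higher and 6 lower at an unadjusted p under 0.05, and Rplp1 and Rps2 changed by 0.01 ± 0.11 and -0.13 ± 0.15. For 22 tested lysosomal genes limma called 0, with 3 higher and 6 lower at an unadjusted p under 0.05, and Lamp1 changed by -0.42 ± 0.11. The unadjusted counts of these lists stand beside 4503 of all 7854 tested genes, in either direction. In cholesterol synthesis Ch25h alone was called of 17 tested, with Fdps and Msmo1 at 0.17 ± 0.11 and 0.07 ± 0.18. In the unfolded protein and heat shock list the chaperone Hsph1 fell by 1.31, the member called of 19 tested, and the stress factor Atf4 and its target Asns changed by 0.14 ± 0.10 and 0.36 ± 0.13. Among lipid genes of LXR and PPAR, 1 of 15 tested rose and 2 fell around a median of -0.27. Ppard rose by 1.16 ± 0.14 and Scd2, a desaturase, changed by -1.62 ± 0.42. Leaving out replicate 1 of the unstimulated arrays ended the call of Ppard by bringing it just under 2-fold. The call of Scd2 ended without either unstimulated array or without replicate 1 of the LPS arrays, at -1.64 to -1.44. Lipoprotein lipase, Lpl, and Lipa changed by -0.18 ± 0.11 and -0.46 ± 0.11. List medians of cholesterol synthesis, unfolded protein, ribosomal and lysosomal genes were -0.06, 0.06, -0.18 and -0.08. With cyclic loess those of glycolysis, cholesterol synthesis and lysosomal genes turned above 0, at 0.01, 0.05 and 0.10, and that of the unfolded protein list turned to -0.11 with median scaling.

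Several calls ended under other settings. Without background correction the changes fell under 2-fold, at 0.88 for Socs1, 0.86 for Ccl17, 0.62 for Hnrnpd, 0.62 for C5ar1, 0.78 for H2-Aa, -0.83 for Cd300a, 0.82 for Mitf, 0.98 for Cdkn2b and 0.98 for Csf3r and, on the side of the falls, -0.51 for Cebpa, -0.85 for Ccne2, -0.95 for Cdc6, -0.88 for Mcm7 and -0.89 for Ezh2. With the authors' processed values the same held, apart from Cdkn2b, and Cd14, Ccl7 and Tlr13 were also short of 2-fold, at 0.99 for Cd14, 0.99 for Ccl7 and -0.99 for Tlr13. Cd74 and Cdk2 were called with cyclic loess (1.02) and with median scaling (-1.04), Cd74 also without replicate 1 of the unstimulated arrays and Cdk2 without replicate 2 of them or replicate 1 of the LPS arrays.

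Targets that Bcl6 is known to repress in B cells moved in both directions. Of 12 tested of 18 listed, 5 rose and 2 fell around a median of 0.46. The rises were those of Cxcl10, Cd69, Cdkn1a, Ccl3 and Ccnd2, and the falls those of Gpr183 and Bcl2, with the values given above except for Ccnd2, named after its values were seen, at 1.05 ± 0.11. Cd44, a hyaluronan receptor, and Id2, an inhibitor of helix-loop-helix factors, changed by 0.39 ± 0.13 and 0.38 ± 0.12. In wild type, 6 of the same members rose and 2 fell.

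Whether the LPS change differed between the labelled knockout and wild type was tested as the difference of the 2 changes in the same fit, which uses no array in common between the changes. The difference was called for 291 genes (3.71%), above 0 for 157 and below 0 for 134. That count was 113 without background correction, 109 with the authors' processed values, 177 with a nec offset of 50 and 382 with median scaling. Probes were admitted by detection on the labelled-knockout arrays alone, so those detected only in wild type were not tested. The split between the 2 directions depends on that filter. With probes detected on at least 2 of all 8 arrays, 14418 were tested and 608 probe differences called, against 539. Counts of differences in the lists below are set against the 3.71%. Of the 619 genes that rose in the labelled knockout 425 were also called higher in wild type, and of the 608 that fell 348 were also called lower. Among the 194 that rose without a call in wild type, the difference was called for 66. The limma adjusted p of each difference named as called was at most 0.0494. Differences are given as fitted, without the lower bound used for folds, and those of probes undetected in a group depend on the background signal there.

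**Figure D4:**
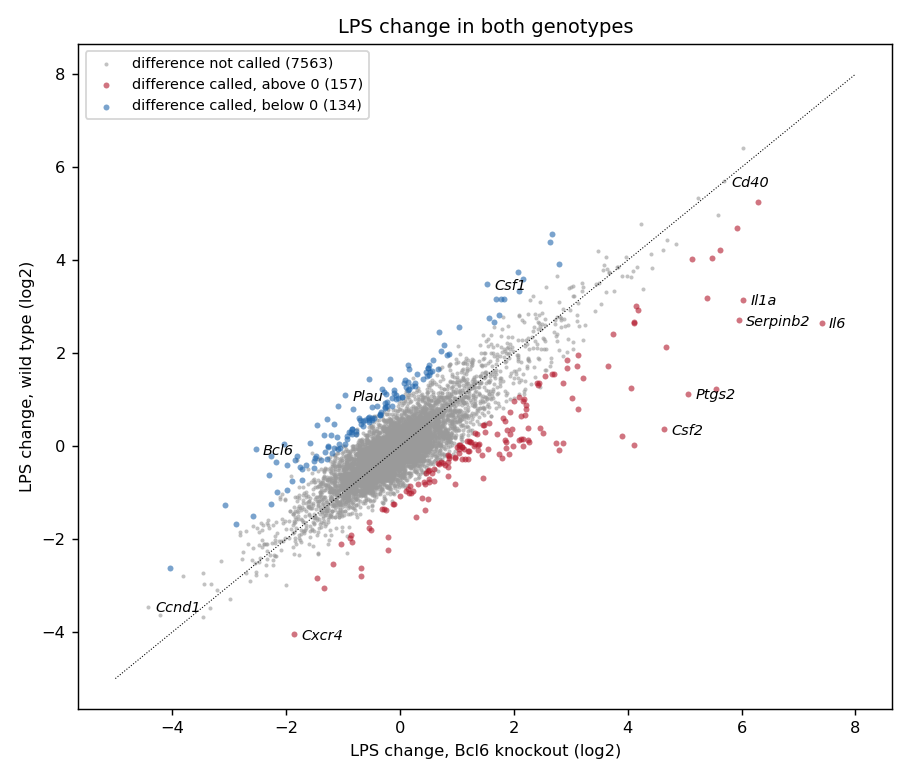
Each point is 1 of the 7854 tested genes, placed by its LPS change in log2 in the labelled knockout (horizontal) and in wild type (vertical), with equal changes on the dotted line. The 291 genes with a called difference are coloured, and Il6, Ptgs2 and Csf2 lie far to the right of the line, while Bcl6 lies left of it at -2.54 in the labelled knockout and -0.07 in wild type.

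Among cytokines the difference was called for 11 members above 0 and 1 below of 24 tested. Of those 24, 8 had been admitted through the labelled-knockout LPS arrays alone. Among the 15 detected on all 4 arrays of the labelled knockout the difference was called above 0 for 4 and below 0 for 1. In wild type Il6 read 7.45 and 7.66 with LPS, against 4.83 and 4.97 without, and the difference was 4.75 ± 0.25. Its wild-type LPS arrays thus stayed far below the labelled-knockout LPS arrays given above. Csf2 was undetected on all 4 wild-type arrays, and its difference was 4.29 ± 0.17. Il1a read 8.23 and 8.10 on the wild-type LPS arrays and was undetected on the wild-type unstimulated arrays, and its difference was 2.88 ± 0.16. Il12a read 8.03 and 8.07 on the wild-type LPS arrays, with a difference of 2.20 ± 0.19. Il1b read 11.47 and 11.43 with LPS, against 6.34 and 6.04 without in wild type, below the labelled knockout both with and without LPS, and its difference was 1.03 ± 0.18. That of Edn1 was 1.24 ± 0.16. The difference of Il1b was not called with median scaling (0.83), without replicate 1 of wild type unstimulated (0.88) or without replicate 2 of the LPS arrays (0.97), and that of Edn1 was not with median scaling (0.97). For Tnf, Cxcl1, Cxcl2 and Cxcl10 the difference was not called, at 0.27 ± 0.18, -0.39 ± 0.15, -0.10 ± 0.18 and 0.50 ± 0.23. The labelled-knockout LPS signals of Il1a, Il1b, Tnf and Cxcl1 stood near the top of the arrays, where a larger signal may not be read. Their differences are therefore not exact sizes, and an equal response of Tnf or Cxcl1 in the genotypes is not shown.

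Enzymes and surface molecules followed with differences above 0. Ptgs2 read 6.0 and 6.42 with LPS, against 5.09 and 5.09 without in wild type, a difference of 3.95 ± 0.22. Ptges went the other way at -1.12 ± 0.24, with 11.04 and 11.23 on the wild-type LPS arrays. Its call ended, with differences of -1.22 to -0.94, without any 1 of the 8 arrays other than replicate 1 of the labelled-knockout LPS, labelled-knockout unstimulated or wild-type unstimulated arrays. Slamf1 had a difference of 4.31 ± 0.17, Serpinb2 of 3.24 ± 0.16 and Clec7a of 2.05 ± 0.23. The uridine phosphorylase Upp1, which salvages pyrimidines, read 10.43 and 10.73 with LPS, against 6.60 and 6.44 without, in the labelled knockout, and 7.35 and 7.63 with LPS, against 6.31 and 6.17 without in wild type, a difference of 2.81 ± 0.21. In the list of nitric oxide and amino acid enzymes 5 of 15 tested members had a called difference above 0, beside 3.71% of all tested genes in either direction. Of those 15, 3 had been admitted through the labelled-knockout LPS arrays alone. Among the 12 detected on all 4 arrays of the labelled knockout the difference was called above 0 for 2. The 5 were Slc7a2 at 2.54 ± 0.23, Hdc at 1.92 ± 0.19, Il4i1 at 1.40 ± 0.18, Arg2 at 1.34 ± 0.30 and Nos2 at 1.25 ± 0.29. The call of Arg2 ended, at 1.04 to 1.39, without any 1 array other than replicate 1 of wild type with LPS or replicate 2 of wild type unstimulated. The call of Nos2 ended, at 0.89 to 1.37, without any 1 array other than replicate 2 of wild type unstimulated. Fosl2 read 8.99 and 8.86 with LPS, against 8.73 and 8.85 without in wild type, a difference of 1.96 ± 0.16.

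Differences below 0 came in several forms. For Bcl6 itself the difference was -2.47 ± 0.19, where its signal fell with LPS in the labelled knockout and was nearly level in wild type. Plau, the urokinase, read 11.31 and 11.23 with LPS, against 12.21 and 12.26 without, in the labelled knockout, and 8.87 and 8.82 with LPS, against 7.82 and 7.68 without in wild type, with a difference of -2.05 ± 0.15. Csf1, the macrophage growth factor, read 11.17 and 11.21 with LPS, against 9.85 and 9.47 without, in the labelled knockout, and 8.50 and 8.67 with LPS, against 5.16 and 5.06 without in wild type, where it was undetected unstimulated. Its difference was -1.95 ± 0.20, although both LPS arrays were higher in the labelled knockout than in wild type. Tsc22d1, a transcriptional regulator, had its lowest signal in the same group, at 9.94 and 9.79 with LPS, against 7.13 and 7.26 without, in the labelled knockout, and 9.79 and 9.64 with LPS, against 5.28 and 5.02 without in wild type, a difference of -1.89 ± 0.19. The chemokines Ccl7 and Ccl3 had high signals without LPS in the labelled knockout, given above, and differences of -1.53 ± 0.14 and -1.40 ± 0.16. The Ccl3 signals with LPS stood close to the top of the arrays, where a larger signal cannot be read, so its rise and its difference are not exact sizes. Without background correction the differences of Csf1, Tsc22d1 and Ccl7 were not called, at -0.48 for Csf1, -0.77 for Tsc22d1 and -0.20 for Ccl7. Usp8, a deubiquitinase, Chp1, a calcium-binding protein, Rtf1, an elongation factor, and Timeless, a replication-fork protein, had dim probes and differences of -1.98 ± 0.52, -1.95 ± 0.31, -1.92 ± 0.24 and -1.86 ± 0.26. Without background correction all 4 were under 2-fold, at -0.97, -0.87, -0.84 and -0.77, and the 2 arrays of Usp8 with LPS read 5.43 and 6.81, apart from each other. The call of Usp8 also ended without any 1 array other than the 2 labelled-knockout LPS arrays, at -2.21 to -1.75.

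Receptors that fell less or more than in wild type included Cxcr4, which read 5.71 and 5.57 with LPS, against 9.71 and 9.65 without in wild type and was undetected there with LPS, giving a difference of 2.18 ± 0.20. Fpr2 rose in both, with a difference of 1.44 ± 0.18 and the higher LPS signal, 14.29 and 14.32, in wild type. Il10ra read 10.61 and 10.27 with LPS, against 10.68 and 10.58 without in wild type, a difference of 1.64 ± 0.19. Zfp36l1 fell further in wild type, at 7.79 and 8.03 with LPS, against 11.10 and 10.81 without, a difference of 1.70 ± 0.19. In the interferon-stimulated list the difference was called for 1 member above 0 and 2 below of 37 tested. Among the 34 detected on all 4 arrays of the labelled knockout it was called for 0 above and 1 below. Mx1 was undetected without LPS in both genotypes and read 7.56 and 7.61 with LPS, against 9.48 and 9.12 in wild type, a difference of -1.75 ± 0.27.

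In the cell cycle lists the difference was called below 0 for 1 of 32 replication genes and 3 of 16 cyclins and Cdk inhibitors tested. Neither list had a call above 0. Among the 12 cyclins and Cdk inhibitors detected on all 4 arrays of the labelled knockout it was called for 2. Ezh2 read 6.86 and 6.65 with LPS, against 6.82 and 6.55 without in wild type, a difference of -1.66 ± 0.19, or -0.93 and not called without background correction, and was the member of the replication list called for it, among 32 tested. In wild type 6 members of that list fell and 0 rose. Cdkn2b read 11.21 and 11.24 with LPS, against 7.97 and 8.14 without in wild type, a difference of -1.34 ± 0.17. Granulocyte markers differed in the same test. Of 11 tested 5 had a called difference above 0, among them Mpo, which encodes myeloperoxidase, at 1.80 ± 0.28 and Lcn2 at 1.51 ± 0.17. Among the 9 detected on all 4 arrays of the labelled knockout it was called above 0 for 3, beside 3.71% of all tested genes in either direction. Elane, Ctsg, Prtn3 and Cebpe, undetected in the labelled knockout, were not tested. In each group of the labelled knockout Mpo was detected on 1 of the 2 arrays. Mpo read 5.87 and 6.37 with LPS, against 5.61 and 6.06 without, in the labelled knockout, and 6.84 and 7.09 with LPS, against 8.45 and 8.51 without in wild type, and the part of such cells in the other differences was not tested.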

How the data were processed

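Total RNA of bone marrow-derived macrophages was labelled with biotin and hybridised to Illumina bead arrays, per the labels. The deposited table holds a bead-summary intensity per probe and array, not normalized between arrays, and a detection p-value, per the file headers, and GenomeStudio is named in the submitters' processing notes. The authors' deposited processed intensity table shares its ranks with it, by an unstated normalization. Intensities were background-corrected by nec (normexp against detection p-values, offset 16), set to log2 and quantile-normalized with limma 3.58.1 in R 4.3.3. One linear model with a mean for each of 4 groups (8 arrays, 4 residual degrees of freedom) gave moderated tests, and the pipeline was tested on data with known changes. Of 45281 probes, 34885 have 1 gene symbol, 18 several and 10378 none here, and 34818 matched RefSeq. A bound sets an undetected probe, per array, at the higher of its own signal and the lowest among detected probes. Named genes were Bcl6, the 12 largest rises and falls detected on all 4 arrays, the 8 largest gains and losses of detection, up to 4 called and 2 brightest uncalled members of each list, and the 8 largest differences each way plus up to 2 per list. The members and lists were chosen with earlier results of these data known. Alternatives changed background correction, scaling, filter, probe choice and arrays.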

Additional observations from a re-analysis of the deposited data

Results flagged for a closer look

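The results below were singled out because the LPS change in the labelled knockout differed from that in wild type in the test of the difference itself (limma, Benjamini-Hochberg adjusted p at most 0.0494 for each gene). The values are the labelled knockout's change minus that of wild type, in log2, and 539 probes met the same threshold.

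Among cytokines and growth factors the differences above 0 were 4.75 for Il6, 4.29 for Csf2, 2.88 for Il1a, 2.20 for Il12a, 1.24 for Edn1 and 1.03 for Il1b, and that of Csf1 was -1.95. Among chemokines and their receptors they were 2.18 for Cxcr4, 1.77 for Ccl17, 1.44 for Fpr2 and 1.11 for Ccl5, and below 0 -1.40 for Ccl3, -1.12 for Ccl4 and -1.53 for Ccl7. Signals of Il1a, Il1b, Ccl3 and Ccl4 with LPS stood near the top of the arrays, so their differences are not exact sizes. Other receptors and surface molecules had 4.31 for Slamf1, 2.05 for Clec7a, 1.64 for Il10ra, 1.30 for Fcgr3, 1.29 for Csf3r and 1.03 for P2ry14, and below 0 -1.19 for P2ry13, -1.62 for Cysltr1 and -1.19 for Tmem154.

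Enzymes and protease genes had 3.95 for Ptgs2, 3.24 for Serpinb2, 2.81 for Upp1, 2.54 for Slc7a2, 1.92 for Hdc, 1.40 for Il4i1, 1.34 for Arg2 and 1.25 for Nos2, and below 0 -1.05 for Nqo1, -1.12 for Ptges, -1.23 for Mmp13, -1.40 for Chac1, -2.05 for Plau and -1.98 for Usp8. Signalling and feedback genes had 1.44 for Rasgrp1, 1.38 for Cish, 1.02 for Socs1 and 1.70 for Zfp36l1, and below 0 -1.19 for Usp18, -1.95 for Chp1 and -1.80 for Pdcd4. Transcription factors had 1.96 for Fosl2 and 1.14 for Klf2, and below 0 -1.24 for Cebpa, -1.28 for Hif1a, -1.42 for Fos, -1.89 for Tsc22d1, -1.92 for Rtf1 and -2.47 for Bcl6.

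Interferon-induced, stress and death genes had 1.20 for Ifih1, 1.05 for Casp4, 1.11 for Gadd45b and 1.20 for Mt2, and below 0 -1.75 for Mx1, -1.13 for Gadd45g and -1.60 for Bcl2. Cell cycle genes had -1.33 for Cdk6, -1.34 for Cdkn2b, -1.66 for Ezh2 and -1.86 for Timeless. Granulocyte markers had 1.80 for Mpo, 1.51 for Lcn2 and 1.19 for S100a9, and their summed signal, given above, was lower in the labelled knockout than in wild type both with and without LPS. The part of such cells in the other differences was not tested.

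Of the 66 named differences 31 were called in every alternative, and the others lost their call in at least 1. Without background correction the differences no longer called were 0.95 for Gadd45b, 0.91 for Klf2, 0.94 for P2ry14, 0.97 for Csf3r, 0.90 for Nos2, 0.81 for Ccl17, 0.57 for Ifih1, 0.49 for Mt2, 0.43 for Socs1, 0.43 for Rasgrp1 and 0.29 for Casp4. Below 0 they were -0.97 for Usp8, -0.96 for Mmp13, -0.93 for Ezh2, -0.92 for Bcl2, -0.90 for Fos, -0.87 for Chp1, -0.84 for Rtf1, -0.80 for Nqo1, -0.77 for Timeless, -0.77 for Tsc22d1, -0.72 for P2ry13, -0.67 for Cdk6, -0.60 for Pdcd4, -0.50 for Cebpa, -0.48 for Csf1 and -0.20 for Ccl7. With the authors' processed values the same differences but that of Usp8, and also that of Ccl5 (0.97), were not called. With a nec offset of 50 the calls of Casp4, Ccl7, Cdk6, Cebpa, Ifih1, Mt2, Nqo1, P2ry13, P2ry14, Rasgrp1 and Socs1 ended, at 0.67 to 1.0 and -1.0 to -0.77. With median scaling those of Casp4, Edn1, Gadd45b, Ifih1, Il1b, Klf2, Mt2, Nos2, P2ry14, S100a9 and Socs1 ended, at 0.73 to 0.97, and with cyclic loess those of Mmp13, Socs1 and Tmem154, at 0.91 and -0.99 to -0.98.

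Some calls also rested on single arrays. That of Socs1 ended, at 0.84 to 0.99, without replicate 2 of the labelled-knockout LPS arrays, replicate 1 of its unstimulated arrays, replicate 2 of wild type with LPS or replicate 1 of the unstimulated wild-type arrays. That of Ifih1 ended, at 0.98 to 1.25, without either unstimulated or replicate 2 of the LPS arrays of the labelled knockout, replicate 2 of the unstimulated wild-type arrays or replicate 1 of those with LPS. That of Cdk6 ended, at -1.53 to -1.03, without any 1 array other than replicate 1 of the labelled-knockout LPS or wild-type unstimulated arrays. That of P2ry14 ended, at 0.92 to 0.99, without replicate 1 of the labelled knockout with LPS or unstimulated, replicate 1 of the unstimulated wild-type arrays or replicate 2 of those with LPS. Those of Nqo1 (-1.0 to -0.94, without replicate 1 of the labelled knockout with LPS, replicate 2 of it unstimulated or replicate 2 of wild type with LPS) and Ccl4 (-1.10 to -0.95, without replicate 2 of either unstimulated group or replicate 1 of wild type with LPS) each ended without 3 arrays. That of Csf3r ended without replicate 2 of either unstimulated group (1.21 to 1.24). Those of Casp4 (0.98) and Mt2 (1.09) ended without replicates 1 and 2 of the labelled knockout unstimulated, in that order, and that of Klf2 (0.98) without replicate 1 of the labelled knockout with LPS. The single arrays behind Usp8, Il1b, Arg2, Nos2 and Ptges are given above.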

How the results depend on the processing

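Counts of probes moved with background correction and scaling more than with any single array. Against 1077 probes higher, 909 lower and 539 with a difference between genotypes, no background correction gave 622, 327 and 185 and the authors' processed values 639, 331 and 182. A nec offset of 50 gave 548 lower and 313 differences, and median scaling 1423 lower and 794 differences. The brightest probe of each gene alone gave 619 higher and 294 differences, by its construction from fewer probes. The cause of the other shifts was not tested. Leaving out 1 array at a time gave 1070 to 1121 higher, 909 to 977 lower and 427 to 585 differences, where a group left with 1 array is assumed to vary like the others. Counts relative to the median change of all probes were chosen after seeing the data.

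Same-numbered arrays did not deviate together, with correlations of deviations of -0.0232 to 0.0109 between groups. These values concern signals alone and cannot tell whether same-numbered arrays were handled together. A fit with the replicate number as a block gave 1077 probes higher, 909 lower and 523 differences.

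Of the 147 named genes called for LPS, 123 were called the same way in all 19 alternatives, and 0 of the 231 named genes were called in the opposite direction. Of the 66 named differences 31 were called in every alternative. Calls ended for 27 without background correction, 27 with the authors' values, 11 with a nec offset of 50, 11 with median scaling, 3 with cyclic loess and 15 without 1 of the arrays. Without the detection filter those of Arg2, Cdk6, Ifih1, Nos2, Ptges, Socs1 and Usp8 ended. That of Usp8 also ended with probes detected on at least 2 of all 8 arrays. Signal over background limits the dimmest probes: those detected on exactly 2 of the 4 arrays had a median log2 intensity of 5.91, against 8.81 for those detected on all 4.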
